A study of Mus musculus with 11 samples.

Results

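The genes of the structural extracellular matrix were examined in tissue labelled hippocampus from mice with a deletion of the Scn1a 1b interval and from WT mice. This interval is a conserved non-coding regulatory stretch of the sodium channel gene Scn1a. Members were all rows whose symbol is a collagen chain (Col followed by its type and chain number), a laminin chain (Lama, Lamb or Lamc) or 1 of the small leucine-rich proteoglycans Dcn, Lum, Bgn, Fmod, Ogn, Omd and Prelp. The rule matched 62 symbols in each of the 2 deposited count tables. Of these, 60 of 14630 genes tested in the heterozygous round and 59 of 14838 genes tested in the homozygous round had at least 1 CPM (counts scaled to the library's total) in at least 1 library, and 59 passed in both. Col10a1 and Col6a6 passed in neither round, and Col28a1 passed in the heterozygous round only.

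All 11 mice were C57BL/6N, aged postnatal day 32 by the study's methods and labelled adult. Each library came from tissue of 1 mouse that was labelled hippocampus, a label checked below. The heterozygous round held 3 male WT mice and 4 1b+/- mice (3 males and 1 female), and was read paired-end. The homozygous round held 2 female WT mice and 2 1b-/- mice, of which replicate 1 was male and replicate 2 female, and was read single-end. The mutants carry a constitutive deletion made with CRISPR/Cas9 in oocytes, so all cells carry it, and no WT mouse does.

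Collagens are chains that wind around each other into rope-like molecules. The fibrillar types build tensile fibres, the basement membrane types build sheets under endothelium and pia, the FACIT types decorate fibrils, and the transmembrane types sit in the cell surface. Laminins join an alpha, a beta and a gamma chain into the cross-shaped molecules that nucleate basement membranes, and small leucine-rich proteoglycans such as decorin bind collagen fibrils and tune their growth. In brain, fibrillar collagens and small leucine-rich proteoglycans are made mainly by fibroblasts of the meninges and around large vessels, whereas collagen IV and laminins come mostly from the vessel wall, astrocytes and pia.

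Scn1a, the targeted gene, was at 171, 113 and 123 CPM in WT and at 91.1, 83.3, 96.6 and 119 CPM in 1b+/- mice of the heterozygous round (log2 fold change -0.47, SE 0.15, adjusted p = 0.303, edgeR's quasi-likelihood test). It was at 134 and 173 CPM in the WT and 26.3 and 16.7 CPM in the 1b-/- libraries of the homozygous round (log2 fold change -2.83, SE 0.27, adjusted p = 0.0211, the same test). Library totals ran from 20667122 to 36145161 counts, and genes typically varied between replicate mice by 9.13% (heterozygous round) and 22.9% (homozygous round), as edgeR's common dispersion gives it.

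The tissue label was checked against marker lists. In the WT libraries of the homozygous round, summed striatum markers lay at 3949 to 9507 CPM, against 272 to 339 CPM in the 1b-/- libraries, and 14 of 16 were lower in 1b-/- mice at an adjusted p under 0.05. C1ql2, a gene of dentate granule cells, was at 1.85 and 1.78 CPM in these WT libraries and at 71.7 and 78.9 CPM in the 1b-/- libraries, and WT of the heterozygous round held 33.8 to 37.9 CPM. In all, 3 of 10 dentate and 5 of 12 pyramidal cell markers were higher in 1b-/- mice at that threshold. Over all genes 2.06% were higher and 1.52% lower at it. Of the dentate markers, 2 had log2 fold changes below 0, down to -0.50, and of the pyramidal cell markers 1. Dentate markers summed to 564 to 582 CPM in these WT and 799 to 802 CPM in the 1b-/- libraries. Pyramidal cell markers summed to 425 to 503 CPM and 956 to 1196 CPM. The 2 WT libraries of the homozygous round therefore go against their hippocampus label, and every 1b-/- comparison below rests on them. They are called the libraries labelled WT there, and no value without both of them can be had.

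Promoters of 5 members are shown: Col1a2, Col3a1, Fmod and Prelp, which lay higher in 1b-/- libraries, and Col24a1, which lay lower. The sequences are the 250 bases before the transcription start in RefSeq (GRCm38.p6), 5′ to 3′ on the gene's strand. They lie at chr6:4505368-4505617 (plus strand) for Col1a2, chr1:45311288-45311537 (plus) for Col3a1, chr1:134037004-134037253 (plus) for Fmod, chr1:133921402-133921651 (minus) for Prelp and chr3:145292222-145292471 (plus) for Col24a1. Capitals mark the TATA box TATAAA, the CCAAT box CCAAT and the GC box GGGCGG, each searched on both strands.
Col1a2: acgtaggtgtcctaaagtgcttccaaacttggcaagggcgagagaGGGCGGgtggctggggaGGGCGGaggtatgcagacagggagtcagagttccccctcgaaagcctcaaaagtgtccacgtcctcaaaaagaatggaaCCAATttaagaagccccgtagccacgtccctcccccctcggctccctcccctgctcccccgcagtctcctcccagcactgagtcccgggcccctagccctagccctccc
Col3a1: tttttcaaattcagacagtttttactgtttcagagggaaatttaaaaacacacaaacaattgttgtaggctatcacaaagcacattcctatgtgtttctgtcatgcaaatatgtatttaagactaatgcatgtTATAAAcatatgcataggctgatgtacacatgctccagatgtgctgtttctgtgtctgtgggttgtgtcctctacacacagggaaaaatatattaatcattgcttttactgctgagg
Fmod: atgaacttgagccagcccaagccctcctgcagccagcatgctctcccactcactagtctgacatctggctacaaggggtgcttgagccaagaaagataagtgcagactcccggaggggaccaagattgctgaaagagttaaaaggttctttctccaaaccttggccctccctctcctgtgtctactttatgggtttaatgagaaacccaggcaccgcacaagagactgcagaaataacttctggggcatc
Prelp: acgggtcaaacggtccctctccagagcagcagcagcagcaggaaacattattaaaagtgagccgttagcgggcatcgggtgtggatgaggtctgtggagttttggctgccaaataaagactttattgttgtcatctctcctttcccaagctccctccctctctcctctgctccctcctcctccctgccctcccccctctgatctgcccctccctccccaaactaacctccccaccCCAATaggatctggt
Col24a1: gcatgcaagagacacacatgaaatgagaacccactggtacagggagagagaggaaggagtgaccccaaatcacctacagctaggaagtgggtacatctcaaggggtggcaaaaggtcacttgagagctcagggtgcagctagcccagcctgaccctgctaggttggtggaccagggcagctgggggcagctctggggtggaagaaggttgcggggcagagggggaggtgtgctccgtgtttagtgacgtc
Col1a2, a chain of collagen I, held 1 CCAAT and 2 GGGCGG matches within a GC content of 62%, and Col3a1, the chain of collagen III, held 1 TATAAA match at 35.2% GC. Prelp held 1 CCAAT match, and Fmod and Col24a1 held none of the 3. Sequences were available for 45 of the 62 member symbols, with 49 windows, and not for Dcn, Col1a1 or Lum. TATAAA was in 12.2% of the member windows and 12.4% of all 32851 windows, CCAAT in 30.6% and 33.8%, and GGGCGG in 51.0% and 32.7%. The median GC content was 58.8% in member windows and 52.4% in all windows. A match is a description of the letters only.

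In WT hippocampus of the heterozygous round, levels per length (RPKM, the CPM divided by the exon length in kilobases) spanned from Dcn at 32.5 ± 8.11 (SD, n = 3) to Col6a6 at 0.0688. Dcn encodes decorin and was followed by Col4a2 at 12.6 ± 0.526 and Col4a1 at 12.3 ± 0.157 RPKM, the common chains of vascular basement membrane collagen IV. The ranges of Dcn and Col4a2 did not overlap, whereas Col4a2 and Col4a1 did not differ beyond their spread. Col25a1, a neuronal transmembrane collagen, stood at 10.2 ± 0.850 RPKM, and Prelp at 9.67 ± 0.518. Of the 62 members, 4 were above 10 RPKM, 33 between 1 and 10 and 25 below 1. Of the 61 neighbouring pairs in this order, 5 had ranges that did not overlap.

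**Figure D1:**
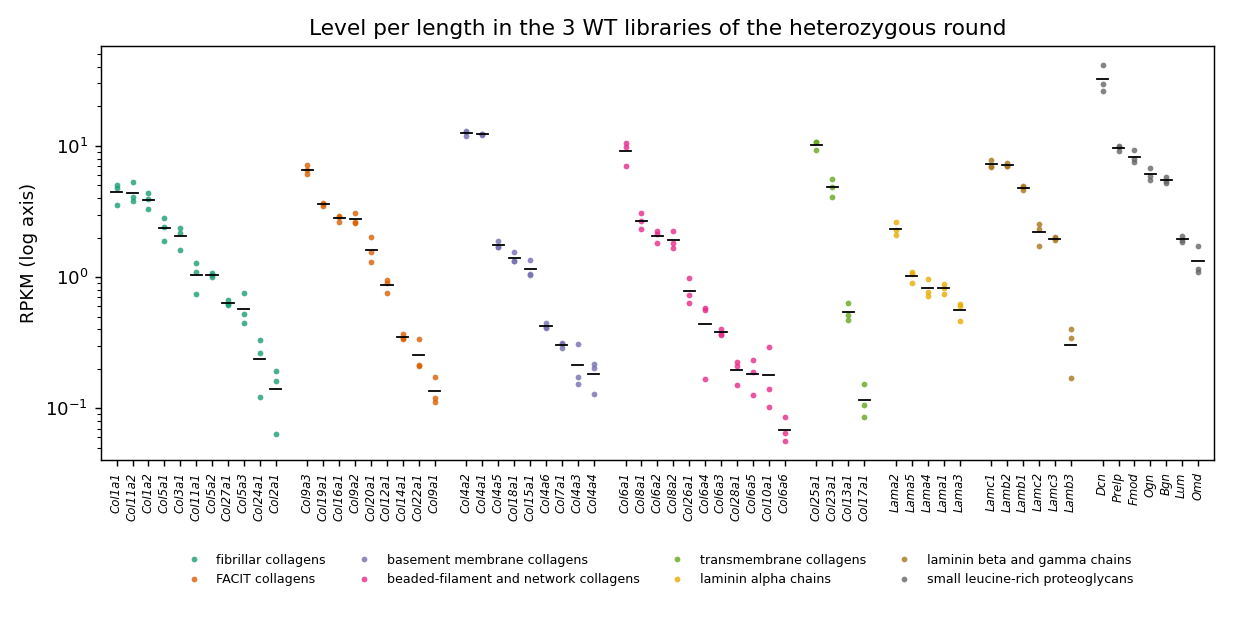
Level per length (RPKM, log axis) of all 62 members in each WT mouse of the heterozygous round (n = 3), grouped by class; points are libraries and bars their means. Dcn stood highest at a mean of 32.5 RPKM, and collagen IV chains Col4a2 and Col4a1 led the basement membrane class at 12.6 and 12.3 RPKM.

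The leading laminin chains were Lamc1 at 7.27 ± 0.516, Lamb2 at 7.20 ± 0.194 and Lamb1 at 4.8 ± 0.199 RPKM (SD, n = 3), while the highest alpha chain, Lama2, stood at 2.34 ± 0.277. Lamc1 is the gamma chain of most laminins, and Lama2 the alpha chain of laminin in muscle and in the astrocyte layer of brain vessels. Among the fibril formers, Col1a1 stood at 4.46 ± 0.786 and Col11a2 at 4.37 ± 0.792 RPKM, which did not differ beyond their spread. The FACIT class was led by Col9a3 at 6.59 ± 0.562, and the beaded-filament and network class by Col6a1 at 9.12 ± 1.88.

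The ratio of Col4a1 to Col4a2 per length was 0.942 to 1.04 in the WT libraries and 0.972 to 1.05 in the 1b+/- libraries. In the homozygous round it was 0.660 to 0.776 in the libraries labelled WT and 0.637 to 0.758 in the 1b-/- libraries. The ratio therefore differed by round and overlapped between genotypes within each round, and the rounds also differ in read type. Col4a1 (chromosome 8 in mm9, 11198423 to 11312826) and Col4a2 (11312805 to 11449287) are transcribed away from each other with start sites 21 bases apart and annotated exons that overlap. Col4a4 and Col4a3 start 72 bases apart on chromosome 1, and Col4a6 and Col4a5 start 1309 bases apart on the X chromosome. In all, 11 pairs of members lie within 100000 bases of each other.

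In 1b+/- mice against WT, 0 of 60 members passed an adjusted p of 0.05 with edgeR's quasi-likelihood test, as did 0 of all 14630 genes (0% called). At an unadjusted p under 0.05 there were 7 members, against 11.3% of all genes, with 2 higher and 5 lower (5.32% and 5.95% of all genes). The groups did not overlap for 5 members (10.9% of all genes), 1 higher and 4 lower (4.69% and 6.25%). DESeq2 and edgeR's likelihood ratio test each called 3 members, all lower: Col25a1, Col23a1 and Col6a1. Over all genes these tests called 245 and 191, of which 24.5% and 18.3% were higher, so most calls were lower. The median log2 fold change of the 60 members was 0.06, beside a median of 0.00 over all genes, with 34 members above 0 and 26 below (50.3% of all genes were above 0).

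Col25a1 is a neuronal collagen whose shed ectodomain is found in amyloid plaques. It was at 86.0, 99.4 and 99.9 CPM in WT and 72.1, 68.9, 78.1 and 83.1 CPM in 1b+/- libraries. Every 1b+/- library lay below every WT library, and the log2 fold change was -0.33 (SE 0.08, adjusted p = 0.166, edgeR's quasi-likelihood test). Col23a1, another transmembrane collagen, was at 23.3, 27.7 and 32.1 CPM in WT and 18.8, 22.1, 20.9 and 18.2 CPM in 1b+/- libraries, also without overlap (log2 fold change -0.47, SE 0.11, adjusted p = 0.175, edgeR). Col6a1, which builds beaded filaments, was at 30.7, 46.1 and 43.5 CPM in WT and 25.3, 30.3, 23.6 and 30.1 CPM in 1b+/- libraries (log2 fold change -0.55, SE 0.14, adjusted p = 0.208, edgeR). Its highest 1b+/- library, at 30.3 CPM, lay just under its lowest WT library. Without WT replicate 1 of this round, 5 members were called, 1 higher and 4 lower, among 421 genes in all. They included Col25a1, Col23a1 and Col6a1, all lower, and the fibrillar chain Col11a2, higher.

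The striatum markers also differed between the groups of this round, at sums of 274, 442 and 263 CPM in WT and 224, 229, 258 and 248 CPM in 1b+/- libraries. Of these, 6 of 13 were lower at an unadjusted p under 0.05 (5.95% of all genes). At that threshold 5 of 10 dentate markers were higher and 1 lower, and 4 of 12 pyramidal cell markers were higher (5.32% of all genes). No marker of these lists passed the adjusted threshold. WT replicate 2 was highest of this round in both the striatum markers and Col6a1, and the order of the other libraries differed between them. The part of regional content in the Col6a1 values was not tested. In the homozygous round, where the striatum markers were highest in the libraries labelled WT, Col6a1 was at 147 and 132 CPM there and at 37.2 and 93.4 CPM in 1b-/- libraries (log2 fold change -1.10, SE 0.42, adjusted p = 0.182, edgeR). Its log2 fold change was -1.91 without 1b-/- replicate 2 and -0.58 without 1b-/- replicate 1.

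Among laminins, Lamc3 was at 11.6 to 12.2 CPM in WT and 8.78 to 10.9 CPM in 1b+/- libraries (log2 fold change -0.25, SE 0.09, adjusted p = 0.349, edgeR). The groups did not overlap. Lamc3 encodes the gamma chain of laminins at the pia and some vessels, and annotated exons of Gm13441 overlap it. Lama3 and Lama5 had log2 fold changes of 0.30 and 0.51, with adjusted p of 0.399 and 0.357 in the same edgeR test. Lama5, an alpha chain of mature vascular basement membrane, was at 10.2, 12 and 12.4 CPM in WT and at 12.4, 13.5, 17.9 and 22.0 CPM in 1b+/- libraries.

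The small leucine-rich proteoglycans and collagens I and III did not separate 1b+/- from WT. Dcn was at 57.6, 50.5 and 80.6 CPM in WT and 50.4, 57.1, 56.7 and 57.3 CPM in 1b+/- libraries (log2 fold change -0.18, SE 0.14, adjusted p = 0.660, edgeR's quasi-likelihood test). Col1a1, the main chain of collagen I, was at 33.1, 31.4 and 23.4 CPM in WT and 29.7, 29.2, 30.9 and 29.8 CPM in 1b+/- libraries (log2 fold change 0.03, SE 0.10). None of the 10 genes of the meningeal group (the 7 proteoglycans with Col1a1, Col1a2 and Col3a1) had an unadjusted p under 0.05, and their log2 fold changes ran from -0.18 to 0.11. Summed, the group stood at 257 to 264 CPM in WT and 227 to 271 CPM in 1b+/- libraries. Other markers of meningeal fibroblasts summed to 503 to 524 CPM in WT and 414 to 640 CPM in 1b+/- libraries, with 0 of 18 called.

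In the homozygous round, 1 of 59 members passed an adjusted p of 0.05: Dcn, higher in 1b-/- mice. Over all genes, 3.58% were called, 2.06% higher and 1.52% lower. At an unadjusted p under 0.05, 10 members were higher and 5 lower, against 13.6% and 12.8% of all genes. The median log2 fold change of the members was 0.38, beside 0.00 over all genes, with 41 members above 0 and 18 below, and the groups did not overlap for 16 higher and 9 lower members, against 29.5% and 30.2% of all genes (59.7% in either direction). DESeq2 called 11 members among 2144 genes in all, and the likelihood ratio test 8 among 1829. Leaving out a library of this round leaves 1 sample on that side, so member counts from those fits are not compared.

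Dcn was at 7.85 and 9.54 CPM in the libraries labelled WT and at 51.9 and 55.8 CPM in 1b-/- libraries, a 6.19-fold higher level (log2 fold change 2.63, SE 0.16, adjusted p = 0.0190, edgeR's quasi-likelihood test). Without WT replicate 1 the log2 fold change was 2.50 and the adjusted p 0.101, with no gene called at all. The 1b-/- level lay within the range of the heterozygous round, 50.4 to 80.6 CPM over WT and 1b+/- libraries, each scaled within its round.

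**Figure D2:**
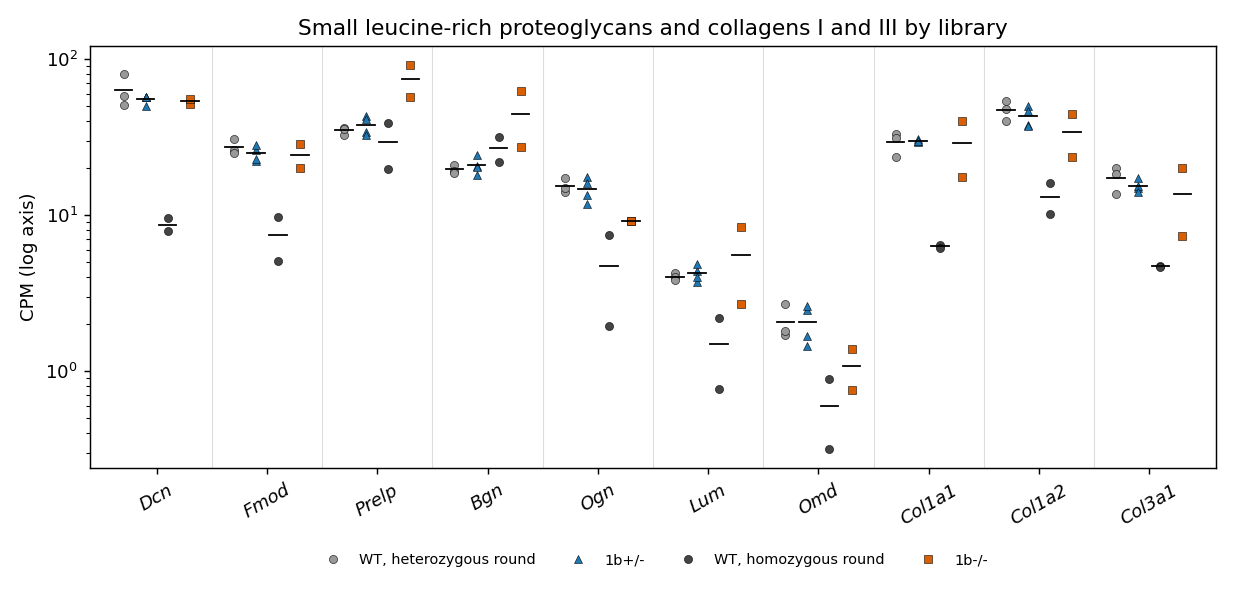
CPM (log axis, scaled within each round) of the 10 genes of the meningeal group in each library; points are libraries and bars group means. The 2 libraries labelled WT in the homozygous round were lowest for Dcn (7.85 and 9.54 CPM) and Col1a1 (6.41 and 6.17 CPM), while the other 3 groups overlapped for these genes.

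The proteoglycans as a class had log2 fold changes of 0.74 to 2.63, all 7 above 0, with a median of 1.34. Of the 7, 1 passed the adjusted threshold, 4 had an unadjusted p under 0.05 and 5 did not overlap between the groups, all higher, against 2.06%, 13.6% and 29.5% of all genes. Fmod, fibromodulin, was at 5.10 and 9.78 CPM in the libraries labelled WT and at 28.7 and 19.9 CPM in 1b-/- libraries (log2 fold change 1.71, SE 0.37, adjusted p = 0.0706, edgeR). Prelp, which anchors basement membrane to connective tissue, was at 19.8 and 38.9 CPM against 57.1 and 91.4 CPM (log2 fold change 1.34, SE 0.39, adjusted p = 0.113, edgeR). Lum, which lies 47357 bases from Dcn on chromosome 10 of mm9, was at 0.767 and 2.20 CPM against 2.7 and 8.36 CPM (adjusted p = 0.187, edgeR). Biglycan, Bgn, was at 21.8 and 31.7 CPM against 27.3 and 62.0 CPM, so its groups overlapped. Osteoglycin, Ogn, was at 1.94 and 7.48 CPM against 9.14 and 9.15 CPM, and Omd, its neighbour on chromosome 13, at 0.316 and 0.889 against 1.39 and 0.752 CPM. Annotated exons of Gm15851 overlap those of Prelp.

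Collagens I and III lay in the same direction. Col1a1 was at 6.41 and 6.17 CPM in the libraries labelled WT and at 17.6 and 40.1 CPM in 1b-/- libraries (log2 fold change 2.19, SE 0.41, adjusted p = 0.0583, edgeR). Col1a2 was at 10.1 and 16 CPM against 23.4 and 44.6 CPM (log2 fold change 1.38, SE 0.38, adjusted p = 0.105, edgeR). Col3a1, of the fibres that accompany collagen I, was at 4.74 and 4.63 CPM against 7.35 and 20.1 CPM (log2 fold change 1.55, SE 0.49, adjusted p = 0.133, edgeR). Without 1b-/- replicate 2 the log2 fold change of Col3a1 was 0.65, and without 1b-/- replicate 1 it was 2.10. In each of the 3 genes the female 1b-/- mouse, replicate 2, was the higher. Its choroid plexus markers summed to 17826 CPM, against 284 CPM in the male replicate 1. Sex and choroid plexus content cannot be told apart between these libraries. Exons of Gm17329 overlap those of Col1a1.

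The 10 genes of the meningeal group summed to 78.9 to 127 CPM in the libraries labelled WT and 227 to 352 CPM in 1b-/- libraries, with all 10 log2 fold changes above 0 (49.9% of all genes were above 0) and a median of 1.47. Of the 10, 7 had an unadjusted p under 0.05, against 13.6% of all genes higher at that threshold. Fewer fibroblasts in a sample and less RNA per fibroblast cannot be told apart in bulk tissue. The 19 other markers of meningeal fibroblasts were examined beside them. Of the 18 tested, 16 had a log2 fold change above 0, 0 were called and 5 were higher at an unadjusted p under 0.05 (13.6% of all genes). Their sums were 240 to 554 CPM in the libraries labelled WT and 460 to 908 CPM in 1b-/- libraries, ranges that overlapped. Slc22a2 was the only one of these markers with 0 counts in a library, WT replicate 2. Slc6a20a, with the smallest p, was at 5.15 and 6.22 CPM against 13.1 and 10.1 CPM (adjusted p = 0.0757, edgeR). The part of fibroblast content in the result was not tested. Striatum and dentate markers also separated the groups in this round, as given above, and their part was not tested.

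The log2 fold changes of the other fibrillar chains went both ways, with 3 of 8 above 0 and 5 below. Col5a2, a chain of the collagen V that starts collagen I fibrils, was at 6.82 and 7.48 CPM in the libraries labelled WT and 11.1 and 16.3 CPM in 1b-/- libraries (log2 fold change 0.94, SE 0.24, adjusted p = 0.0956, edgeR). Col5a1 and Col11a2 had log2 fold changes of -0.54 and -0.50. Col24a1, a fibrillar collagen of developing bone, went furthest the other way. It was at 26.4 and 8.61 CPM in the libraries labelled WT and at 1.93 and 0.501 CPM in 1b-/- libraries (log2 fold change -3.83, SE 0.82, adjusted p = 0.0700, edgeR). In the heterozygous round Col24a1 was at 0.925 to 2.60 CPM over all 7 libraries, so the libraries labelled WT in the homozygous round stood apart from the other 9 in this gene too.

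**Figure D3:**
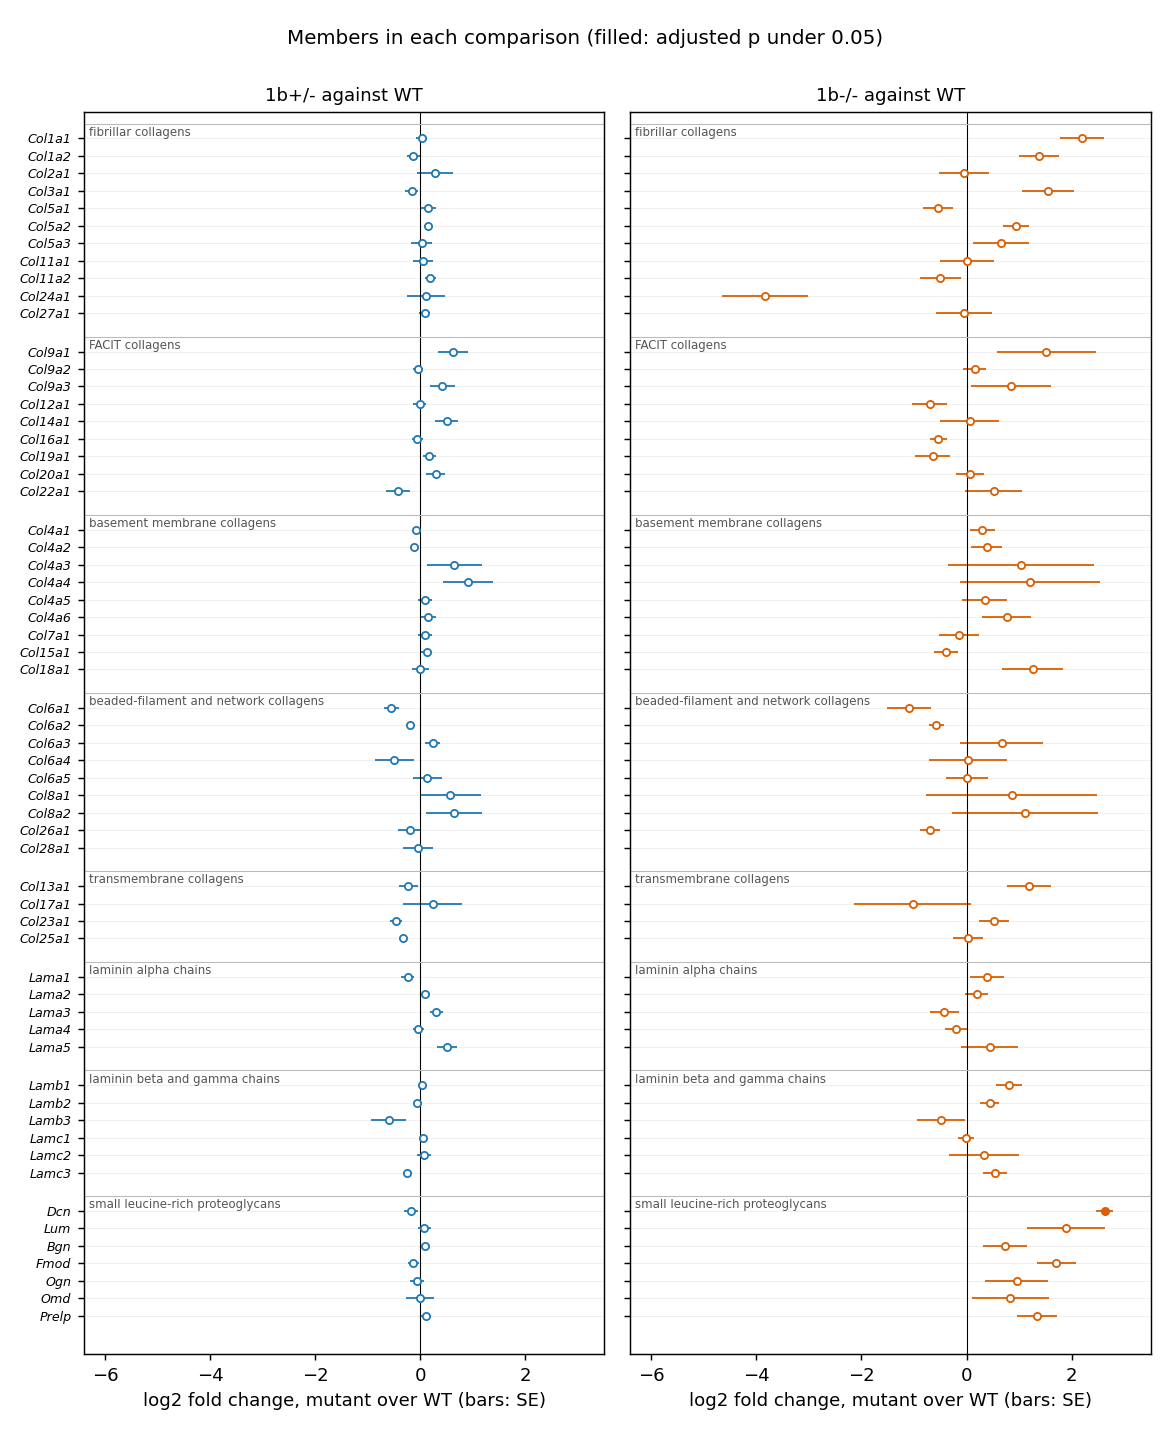
Log2 fold change of each tested member in 1b+/- (left, 60 members) and 1b-/- mice (right, 59 members), with standard errors as bars; filled points passed an adjusted p of 0.05 in edgeR's quasi-likelihood test. Only Dcn, at 2.63 in 1b-/- mice, was filled, and all 7 proteoglycans lay right of 0 there.

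Of the basement membrane collagens in 1b-/- mice, 0 of 9 passed (3.58% of all genes) and 0 had an unadjusted p under 0.05 (26.4% of all genes). Their median log2 fold change was 0.38. They summed to 218 to 227 CPM in the libraries labelled WT and 200 to 376 CPM in 1b-/- libraries. Col4a1 was at 83.1 and 70.4 CPM in the libraries labelled WT and at 74.3 and 115 CPM in 1b-/- libraries, and Col4a2 at 104 and 104 against 95.2 and 175 CPM. Both overlapped, and the high value was that of 1b-/- replicate 2. Col18a1, whose fragment is endostatin, was at 7.72 and 9.5 against 9.34 and 31.8 CPM. Col6a2, a partner of Col6a1, was at 30.6 and 27.8 CPM against 20.1 and 19.1 CPM (log2 fold change -0.58, SE 0.14, adjusted p = 0.0868, edgeR), without overlap. The FACIT chain Col16a1 was at 35 and 29.1 CPM against 23.9 and 20.3 CPM (log2 fold change -0.54, SE 0.17, adjusted p = 0.131, edgeR).

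Among laminins in 1b-/- mice, the beta chain Lamb1 was at 32.2 and 31.1 CPM in the libraries labelled WT and 41.6 and 68.9 CPM in 1b-/- libraries (log2 fold change 0.80, SE 0.25, adjusted p = 0.131, edgeR). Lamb2, a beta chain of mature basement membranes, was at 30.1 and 24.5 CPM against 33.0 and 41.1 CPM, and Lamc3 at 5.24 and 4.58 CPM against 6.47 and 7.83 CPM. None of the 3 overlapped between groups, as was so for 59.7% of all genes. Lamc1 overlapped, at 60.5 and 48.4 CPM against 51.2 and 56.7 CPM (log2 fold change -0.01, SE 0.16). The endothelial markers, read beside these vascular genes, had all 15 log2 fold changes below 0, with 0 called. Of the 15, 7 had an unadjusted p under 0.05, against 12.8% of all genes lower at that threshold. They summed to 471 to 579 CPM in the libraries labelled WT and 383 to 408 CPM in 1b-/- libraries. Pericyte and smooth muscle markers summed to 217 to 247 CPM and 192 to 230 CPM, with 0 of 13 called. Their part in the laminin values was not tested.

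**Figure D4:**
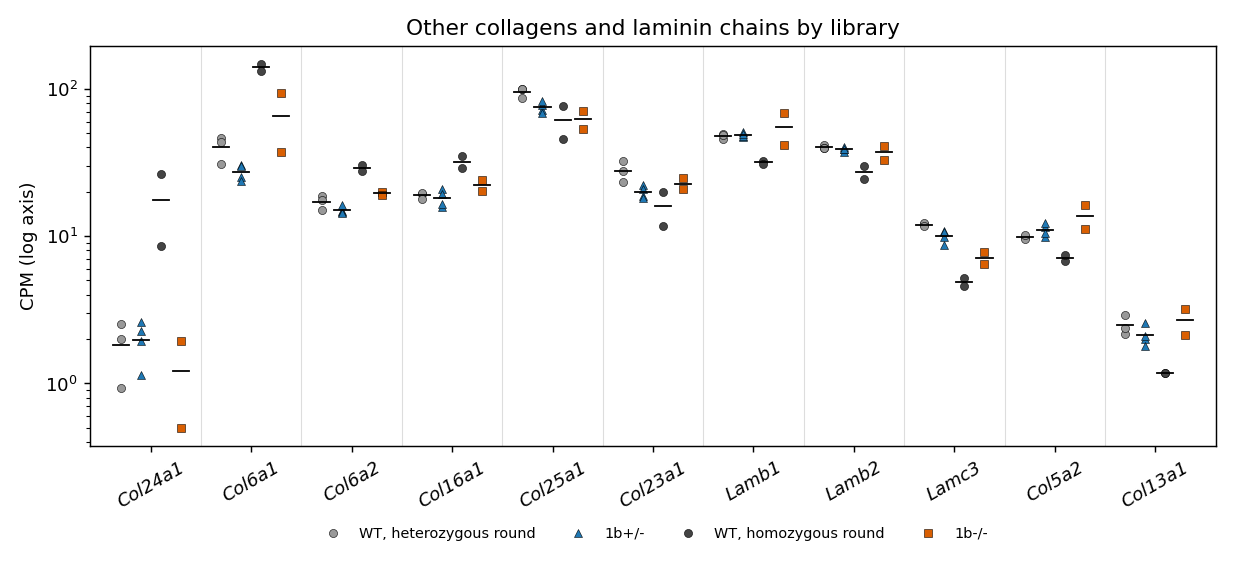
CPM (log axis, scaled within each round) of 11 further collagens and laminin chains in each library; points are libraries and bars group means. Col24a1 and Col6a1 were highest in the libraries labelled WT of the homozygous round, at 26.4 and 8.61 CPM and at 147 and 132 CPM.

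The difference between the 2 genotype effects was tested on all 11 libraries. Of 60 members, 13 (21.7%) passed an adjusted p of 0.05 with edgeR's quasi-likelihood test, beside 27.3% of all 14905 genes, so that the share was below the background. In 12 of them the log2 fold change of 1b-/- mice was above that of 1b+/- mice: Dcn by 2.80 (adjusted p = 1.05e-04, edgeR), Col1a1 by 2.15, Fmod by 1.84, Col3a1 by 1.70, Col1a2 by 1.51, Col13a1 by 1.41, Prelp by 1.22, Col23a1 by 0.98, Lamc3 by 0.78, Col5a2 by 0.78, Lamb1 by 0.76 and Lamb2 by 0.49. Col24a1 lay the other way, with a difference of -3.94 (adjusted p = 0.00799, edgeR). Among all genes called in this test, 52.3% had a difference above 0. Of the 13, 6 were called in all 14 alternative fits. Round and genotype comparison cannot be told apart here, because each genotype was sequenced in its own round, with its own WT mice.

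Transmembrane collagen Col13a1, a component of the neuromuscular junction, was at 2.16, 2.92 and 2.38 CPM in WT and 2.01, 1.80, 2.58 and 2.09 CPM in 1b+/- libraries. In the homozygous round it was at 1.17 and 1.17 CPM in the libraries labelled WT and at 2.13 and 3.23 CPM in 1b-/- libraries. The libraries labelled WT were the lowest of the 11. Of the 1b-/- libraries, 1 lay within the range of the heterozygous round and the other above it.

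A separate set of members varied within genotypes. Col8a1, a network collagen, was at 2.60, 17.6, 33.8 and 27.3 CPM in the 4 1b+/- libraries, 2.08 and 29.2 CPM in the libraries labelled WT of the homozygous round, and 1.90 and 55.0 CPM in 1b-/- libraries. The 3 WT mice of the heterozygous round were close together, at 13.6, 12 and 15.6 CPM. Ttr, transthyretin, made by choroid plexus epithelium, was at 32.3, 1032, 2349 and 1912 CPM in the 1b+/- libraries, 36.2 and 3170 CPM and 42.2 and 13061 CPM in the homozygous round, and 649, 823 and 964 CPM in WT of the heterozygous round. The 3 libraries lowest in Ttr were also the 3 lowest in Col8a1, Col8a2, Col4a3 and Col4a4, and 1b-/- replicate 2 was highest in all 4.

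Col8a2 ran from 1.96 to 41.7 CPM, Col4a3 from 0.369 to 10.3 CPM and Col4a4 from 0.511 to 8.74 CPM over the 11 libraries. Col9a3, whose exons overlap those of Tcfl5, ran from 19.4 to 109 CPM. All 12 choroid plexus markers had log2 fold changes above 0 in both comparisons, with 0 called in either, and their sum ran from 318 to 4621 CPM in 1b+/- libraries, 1547 to 2017 CPM in WT of that round, 475 to 5642 CPM in the libraries labelled WT of the homozygous round and 284 to 17826 CPM in 1b-/- libraries. The part of choroid plexus content in these collagens was not tested. Without 1b-/- replicate 2, the log2 fold change of Col8a1 in 1b-/- mice was -3.04 in place of 0.86, that of Col8a2 -2.36 in place of 1.12, and that of Col4a3 -2.80 in place of 1.03.

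**Figure D5:**
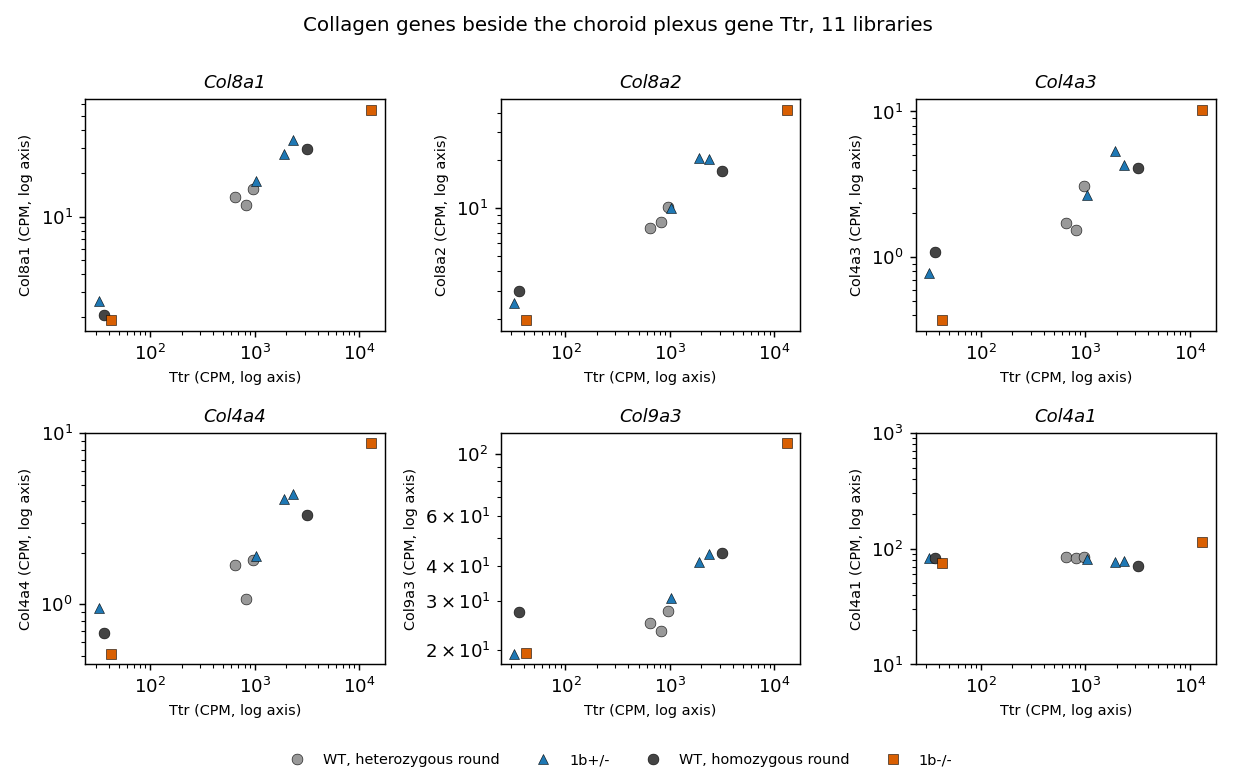
CPM of 6 collagen genes against CPM of the choroid plexus gene Ttr in the 11 libraries (both axes log, scaled within each round); each point is 1 library. Col8a1 ran from 1.90 to 55.0 CPM between the libraries low and high in Ttr, whereas Col4a1 stayed between 70.4 and 115 CPM.

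The genes that make, modify and bind these proteins were read from lists of enzymes, basement membrane partners and receptors. Among collagen-processing enzymes, 0 of 25 tested passed in 1b+/- mice and 0 of 26 in 1b-/- mice, with edgeR's quasi-likelihood test. At an unadjusted p under 0.05 there were 0 in 1b+/- mice (11.3% of all genes). In 1b-/- mice there were 1 higher and 2 lower, against 13.6% and 12.8% of all genes. Adamts3, which trims the procollagen end, was at 56.1 and 33.5 CPM in the libraries labelled WT and at 20.4 and 24.2 CPM in 1b-/- libraries (log2 fold change -1.01, SE 0.27, adjusted p = 0.101, edgeR). Plod2, a lysyl hydroxylase for collagen cross-links, had a log2 fold change of 0.27 in 1b+/- mice (adjusted p = 0.483, edgeR).

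Of the basement membrane partners, 0 of 11 passed in either comparison. At an unadjusted p under 0.05, 2 were higher in 1b+/- mice and 1 in 1b-/- mice, against 5.32% and 13.6% of all genes. Hspg2, perlecan, was at 21.1, 17 and 16 CPM in WT and 18.6, 24.7, 25.2 and 25.2 CPM in 1b+/- libraries (log2 fold change 0.37, SE 0.13, adjusted p = 0.329, edgeR). Fbln1, fibulin-1, was at 4.29 and 7.02 CPM in the libraries labelled WT and at 14.4 and 17.7 CPM in 1b-/- libraries (log2 fold change 1.51, SE 0.29, adjusted p = 0.0592, edgeR). Of the collagen and laminin receptors, 0 of 14 passed in either comparison. Itga7, a laminin-binding integrin chain of muscle, was at 17.6 and 18.4 CPM against 29.1 and 38.5 CPM in the homozygous round (log2 fold change 0.91, SE 0.18, adjusted p = 0.0633, edgeR). Adgrg1, a receptor for collagen III in brain, had a log2 fold change of -0.19 in 1b+/- mice (SE 0.05, adjusted p = 0.262, edgeR).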

How the data were processed

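Tissue labelled hippocampus from 11 mice, taken at postnatal day 32, had been profiled by RNA-seq. The authors deposited raw counts per gene, 1 table per round, made by aligning stranded mRNA reads to mm9 with STAR 2.7.2 and counting them per gene with featureCounts. The strand setting of the counting is not given in the sources used here, so members whose exons overlap another gene (11 of 62) are uncertain. No column was left unused. Each table holds 27 symbols turned into dates, with 0.300% to 0.372% of the counts.

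Genes that reached 1 CPM in any library were kept. Libraries were TMM-scaled, and 1b+/- and 1b-/- mice were each compared with the WT of their round by edgeR 4.0.16 (glmQLFit and glmQLFTest, R 4.3.3), with Benjamini-Hochberg adjustment over all genes and a threshold of 0.05. The difference between the genotype effects used 4 group means over the 14905 genes tested of the 23644 that both tables hold. Standard errors are the log2 fold change divided by the root of the F statistic. RPKM used TMM-scaled CPM and union exon length (GENCODE, mm9). Totals of 20667122 to 36145161 counts leave the spread between mice, not counting error, as the limit of most comparisons. Replicates differed by more than sampling noise.

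Named genes were Scn1a, every member with an adjusted p under 0.05, the member of each class with the highest RPKM or the smallest p, and up to 3 called genes, or the smallest p, of each pathway and marker list, of which the text gives those that bear on a member. Lum, Ogn, Omd, Bgn, Col8a1, Col8a2, Col4a1, Col4a3, Col4a4, Col5a1, Slc22a2 and Ttr were added with values seen. The members and lists were chosen with earlier results of these data known. As alternatives, DESeq2 1.42.0 or the likelihood ratio test replaced the test, RLE replaced TMM, filterByExpr or no filter replaced the 1 CPM rule, sex was added, both rounds were fitted together, and libraries were left out singly. The code was tested on simulated counts.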

Additional observations from a re-analysis of the deposited data

Results flagged for a closer look

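In 13 members the log2 fold change of 1b-/- mice differed from that of 1b+/- mice (adjusted p under 0.05 when all 11 libraries entered edgeR's quasi-likelihood test of the difference). The differences were 2.80 for Dcn (adjusted p = 1.05e-04), 2.15 for Col1a1 (0.00289), 1.84 for Fmod (0.00322), 1.70 for Col3a1 (0.0202), 1.51 for Col1a2 (0.0133), 1.41 for Col13a1 (0.0142) and 1.22 for Prelp (0.0282). They were 0.98 for Col23a1 (0.0274), 0.78 for Lamc3 (0.00985), 0.78 for Col5a2 (0.0233), 0.76 for Lamb1 (0.0248), 0.49 for Lamb2 (0.0280) and -3.94 for Col24a1 (0.00799). Over all genes 27.3% were called, with 52.3% of those calls above 0. The libraries labelled WT in the homozygous round carry striatum markers.

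In 1b+/- replicate 1, Col14a1, a FACIT collagen, stood at 2.09 CPM against 3.84 to 4.03 CPM in the other 3 1b+/- libraries. Dcn stood there at 50.4 CPM, against 56.7 to 57.3 CPM in the other 3, and WT held a library at 50.5 CPM. Both were picked by the gap relative to the group's range. These were 2 of 37 groups tested, and chance flags about 1 in 20.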

How the results depend on the processing

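In 1b+/- mice 0 members were called, and the likelihood ratio test and DESeq2 called 3 each. With libraries left out singly the count ran from 0 to 5, the 5 being without WT replicate 1. In 1b-/- mice 1 member was called, against 8 by the likelihood ratio test, 11 by DESeq2 and 4 with no filter. The count was 10 with sex in the model and 18 with both rounds in 1 fit. The 1b-/- replicate 1 was the only male of the homozygous round, so the fit with sex rested on its females. Over all genes, the likelihood ratio test called 191 genes in 1b+/- and 1829 in 1b-/- mice, and DESeq2 245 and 2144, against 0 and 531. No filter called 44 and 1029, sex in the model 0 and 722, and both rounds in 1 fit 0 and 5541. The 13 members called in the difference became 8 (without WT replicate 3 of the heterozygous round) to 24 (without 1b-/- replicate 1). RLE factors and filterByExpr left the counts of 0 and 1 as they were, and the cause of the other shifts was not tested.

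With sex in the model, the log2 fold change of Omd in 1b+/- mice turned to 0.079 and that of Lamc1 in 1b-/- mice to 0.059. With libraries left out, log2 fold changes in 1b+/- mice crossed 0 for Dcn (-0.31 to 0.034), Col1a1 (-0.11 to 0.13), Col24a1 (-0.19 to 0.43), Ogn (-0.17 to 0.028) and Omd (-0.15 to 0.23). In 1b-/- mice they crossed 0 for Sostdc1, a choroid plexus gene (-1.83 to 5.53), Col8a1 (-3.04 to 3.77), Col8a2 (-2.36 to 2.85), Col4a3 (-2.80 to 2.29), Col4a4 (-1.96 to 2.76), Col9a3 (-0.87 to 1.61), Col4a1 (-0.046 to 0.58), Col4a2 (-0.12 to 0.76), Col25a1 (-0.31 to 0.45), Lama2 (-0.033 to 0.39) and Lamc1 (-0.17 to 0.16). Without crossing 0, those in 1b-/- mice ranged over 0.65 to 2.10 for Col3a1, 1.48 to 2.67 for Col1a1, 0.85 to 1.78 for Col1a2, 1.32 to 2.25 for Fmod, 0.94 to 1.91 for Prelp, 0.86 to 2.84 for Lum, 0.40 to 1.12 for Lamb1, 0.64 to 1.19 for Col5a2, 0.12 to 1.89 for Col18a1, -5.11 to -2.81 for Col24a1 and -1.91 to -0.58 for Col6a1. Dcn in 1b-/- mice kept a log2 fold change of 2.50 to 2.78 under the 11 alternatives, with adjusted p from 3.3e-30 to 0.101 (DESeq2 lowest, edgeR without WT replicate 1 highest).

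Leaving out a library of the homozygous round leaves 1 sample on that side, which is then assumed to vary like the others. With 2 mice a group, sexes unequal between genotypes and libraries labelled WT that carry striatum markers, members near the threshold cannot be settled. No paired analysis was made, because the labels used here do not match any mutant mouse with a WT mouse.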
